A study of Homo sapiens with 4 samples.

Results

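Splicing factors and snRNP proteins of KM-H2 cells are described here in knockdown and control samples. The genes were chosen by symbol, as those that begin with SRSF, HNRNP, SF3A, SF3B, SNRP, PRPF, U2AF, or LSM and a number, with pseudogenes and antisense RNAs left out. This gave 77 protein-coding genes of the 19775 genes named by the array's annotation: 19 HNRNP, 13 LSM, 12 SNRP, 11 PRPF, 10 SRSF, 6 SF3B, 3 SF3A and 3 U2AF genes. The symbols HNRNPD-DT and SNRPF-DT, which belong to non-coding RNAs transcribed away from their neighbours, and the pseudogene HNRNPA3P1 were set aside. SRSF2, SRSF9 and HNRNPH2 are read by probe sets annotated to several genes and therefore have no value here.

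KM-H2, an established line of Hodgkin lymphoma cells, carries a fusion of CIITA (the coactivator that switches on HLA class II genes) with BX648577. The knockdown cells carried a lentiviral vector (pGIPZ-sh.FLJ27352) expressing 1 hairpin RNA against the BX648577 part of the CIITA-BX648577 fusion transcript, and the control cells were transduced KM-H2 cells labelled as non-silencing control. Each group had 2 single-colour Affymetrix arrays, 4 in all, labelled replicates 1 and 2, and nothing in the labels says whether replicates were separate cultures, so the p-values measure the spread between these arrays. The comparison asked which transcripts differ once the fusion transcript is targeted. The labels give the hairpin as 1 sequence of 97 bases, and the knockdown rests on this 1 hairpin. Its longest inverted repeat, 2 complementary arms of 23 bases with 15 bases between them, is shown. The ends of these arms were found by the repeat and not taken from the labels, so the arms may hold bases outside the targeting sequence.
First arm: gacagccacctcactatcaaata
Second arm: tatttgatagtgaggtggctgtc

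Splicing removes introns from pre-mRNA on the spliceosome, which is built anew on each intron from small nuclear ribonucleoproteins (snRNPs). Each snRNP is a small nuclear RNA inside a ring of Sm or LSM proteins with a few proteins of its own. SR proteins (the SRSF genes) mostly bind exons and favour the use of nearby splice sites, while hnRNP proteins coat the transcript and often oppose them, so their balance sets alternative splicing. Most core spliceosome proteins are needed in every dividing cell, and SF3B1 and U2AF1 are recurrently mutated in blood cancers.

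The 4 arrays had mean intensities between 53.3 and 54.6 array units. Their median intensities were 8.37 and 8.12 in knockdown and 9.17 and 9.28 in control. The log2 values of the arrays correlated at r = 0.987 within knockdown, 0.980 within control and 0.979 to 0.982 between groups. These correlations run over probe sets and do not count as replication. PIERCE2, which general knowledge links to FLJ27352, read 621 and 590 on the knockdown arrays against 880 and 947 on the control arrays, and CIITA read 60.6 and 53.6 against 59.6 and 65.1. PIERCE2 was lower on both knockdown arrays (log2 fold change -0.58, limma adjusted p = 0.252 with 1 prior variance and 9.74e-05 with a prior that follows intensity), and the CIITA groups overlapped. Of 10 genes that mark Hodgkin Reed-Sternberg cells, 10 lay above the filter on dim probe sets. Their summed intensities were 1699 to 1728 in knockdown and 1764 to 1780 in control. This sum hides markers that went opposite ways. FSCN1, the brightest, read 507 and 500 in knockdown against 644 and 618 in control. FUT4 (102 and 105 against 76.6 and 73.9) and IL2RA (25.4 and 24.4 against 13.7 and 16.1) were higher on both knockdown arrays. The 6 B cell markers summed to 107 in knockdown and 110 to 124 in control. Of 7 markers of T and NK cells 2 lay above the filter, with sums of 262 to 303 and 213 to 227. CD3D alone gave 253 and 225 against 194 and 183, while CD8A read at most 2.86 on any array. Of 6 myeloid markers 4 lay above it (sums of 152 to 153 and 164 to 176), and of 8 fibroblast and epithelial markers 3 (111 to 120 and 142 to 171). The part of these markers in the results was not tested. On bulk RNA, fewer cells with a transcript and less of it per cell cannot be told apart.

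Below, levels are linear intensities of the gene's brightest probe set, means are given ± SD (n = 2 arrays per group), and each log2 fold change is the knockdown mean less the control mean of log2(intensity + 16). Of the 77 genes, 74 (96.1%) lay above the filter, a mean of 4.60 on that scale (an intensity of 8.26), against 65.3% of all named genes. The 3 below it were SNRPN, which encodes a Sm protein found mainly in brain, SRSF12 and U2AF1L4. SNRPN read 1.52 and 3.99 in knockdown and 5.31 and 9.10 in control, SRSF12 read 4.81 and 6.58 against 5.76 and 7.19, and U2AF1L4 read 3.72 and 9.65 against 4.41 and 3.44. These values lie at the dim end of the arrays and give no level for the 3 genes.

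The splicing genes centred on no difference between knockdown and control. Their median log2 fold change was 0.00 (quartiles -0.12 and 0.13), beside -0.01 (quartiles -0.14 and 0.11) over all 12922 genes tested, with 39 above 0 and 35 below. The lowest was -0.43 and the highest 0.47. Of the 74, 63 (85.1%) had a fold change of less than 0.25 in either direction, as did 80.7% of all genes tested, and 11 had 0.25 or more, against 19.3%. The 95% interval of the brightest probe set lay wholly within -0.5 and 0.5 for 60 genes and within -1 and 1 for 74.

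In the limma fit with 1 prior variance for all genes (the common-prior fit), 0 of the 74 passed an adjusted p of 0.05, as against 0.0155% of all genes tested, and the smallest adjusted p was 0.252. At an unadjusted p below 0.05 in this fit there were 9 of 74 (7 higher, 2 lower), where 14.1% of all genes tested lay (828 higher, 993 lower). A second limma fit, in which the prior variance follows mean intensity (the intensity-trend fit), called 4 of 74 (5.41%), against 2.99% of all genes tested. SNRPB and SF3A2 were higher, where 1.59% of all genes tested lay, and U2AF2 and LSM5 lower, where 1.40% lay. At 41 of 74 genes (55.4%) the arrays of the 2 groups did not overlap, against 47.3% of all genes tested. Of these, 21 were higher in knockdown (22.7% of all genes tested) and 20 lower (24.5%). With 2 arrays against 2 an exact permutation test cannot give a two-sided p below 0.333, so no such test was made for single genes.

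**Figure D1:**
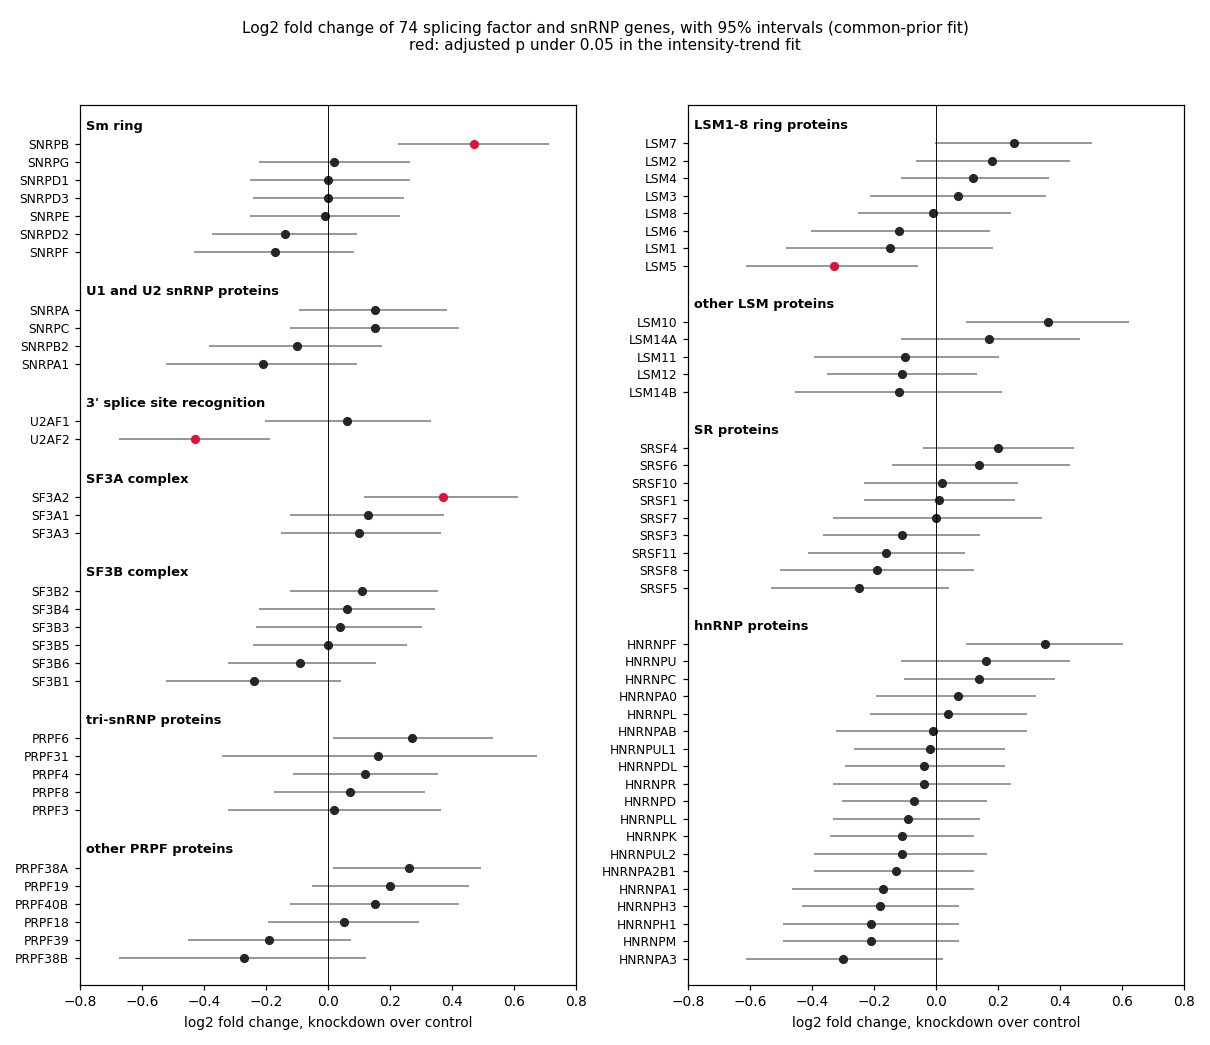
Log2 fold change (x axis, knockdown over control, log2(intensity + 16) scale) of the 74 tested genes, grouped by role, as points with 95% intervals from the common-prior fit. The 4 red points, SNRPB, U2AF2, SF3A2 and LSM5, passed the intensity-trend fit, and most intervals cross 0.

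**Figure D2:**
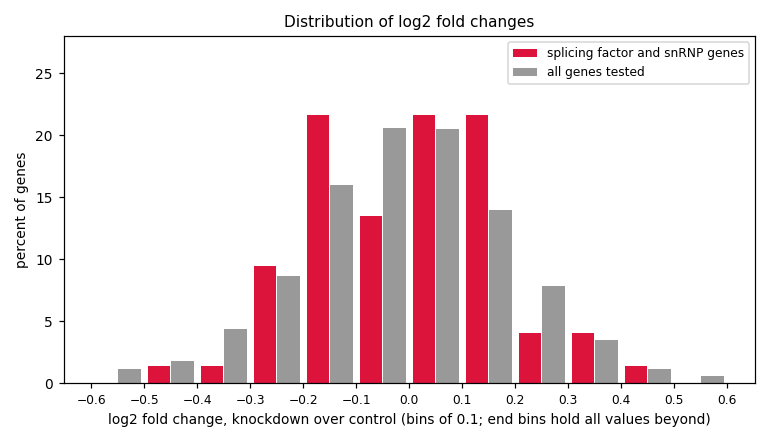
Percent of genes (y axis) in each bin of log2 fold change (x axis, knockdown over control) for the 74 splicing genes in red and for all 12922 genes tested in grey. Both distributions centre on 0, and none of the splicing genes lies beyond -0.5 or 0.5.

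Promoter sequence is a feature that the choice by symbol did not use. RefSeq promoters (GRCh38.p14) were matched for 69 of the 77 genes, and the 250 bases before the start were searched on both strands for 5 motifs. CCGGAAG, the core of ETS factor sites, was in 22 of 69 (31.9%), against 15.1% of 10400 tested genes with a promoter and 8.82% of all 27305 promoters. CCAAT, the NF-Y box, was in 43.5% against 35.2% and 33%. GGGCGG, the GC box, was in 60.9% against 63.6% and 42.3%, TATAAA in 8.7% against 6.38% and 11.1%, and CACGTG in 8.7% against 8.72% and 6.49%. The median GC content was 61.6%, against 64.4% for tested genes. A match describes letters and is no evidence of binding, and no match says only that these letters are absent from the window.

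The promoters of the 4 genes that passed the intensity-trend fit are shown because these genes have the lowest adjusted p-values of the 74 in that fit. They are SNRPB at chr20:2470790-2471039 on the minus strand, SF3A2 at chr19:2236574-2236823 on the plus strand, U2AF2 at chr19:55654785-55655034 on the plus strand and LSM5 at chr7:32490381-32490630 on the minus strand, each written 5′ to 3′ and ending at the base before the start. Capitals mark matches to the 5 motifs on either strand, and runs of capitals hold overlapping GC boxes.
SNRPB: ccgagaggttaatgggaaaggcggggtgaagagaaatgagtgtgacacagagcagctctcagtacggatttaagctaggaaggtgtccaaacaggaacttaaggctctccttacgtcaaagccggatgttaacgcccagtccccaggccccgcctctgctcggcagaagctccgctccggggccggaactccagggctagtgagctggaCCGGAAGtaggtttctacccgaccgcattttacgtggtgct
SF3A2: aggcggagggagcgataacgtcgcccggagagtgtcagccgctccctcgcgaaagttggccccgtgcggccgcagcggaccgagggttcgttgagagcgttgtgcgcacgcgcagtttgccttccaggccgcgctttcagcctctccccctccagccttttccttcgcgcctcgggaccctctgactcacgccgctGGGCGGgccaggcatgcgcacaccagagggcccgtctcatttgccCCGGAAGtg
U2AF2: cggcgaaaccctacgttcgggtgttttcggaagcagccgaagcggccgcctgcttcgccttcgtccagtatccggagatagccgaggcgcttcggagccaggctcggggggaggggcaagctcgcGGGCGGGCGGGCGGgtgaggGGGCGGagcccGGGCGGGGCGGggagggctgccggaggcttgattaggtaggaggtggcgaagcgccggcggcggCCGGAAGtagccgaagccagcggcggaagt
LSM5: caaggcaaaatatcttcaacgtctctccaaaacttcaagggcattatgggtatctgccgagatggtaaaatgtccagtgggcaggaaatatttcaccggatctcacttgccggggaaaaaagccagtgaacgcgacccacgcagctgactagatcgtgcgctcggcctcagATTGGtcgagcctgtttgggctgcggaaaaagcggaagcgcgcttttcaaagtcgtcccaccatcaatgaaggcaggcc
CCGGAAG stands near the start in SNRPB, SF3A2 and U2AF2, which were higher, higher and lower in knockdown, and LSM5 holds a single CCAAT box (read as ATTGG on this strand) and none of the other motifs. U2AF2 holds 6 GC boxes, some of them overlapping, and a GC content of 72.4%, against 52.4% in LSM5.

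The Sm ring, the ring of small proteins that every spliceosomal snRNA except the U6 type carries, was represented by 7 tested genes with a median log2 fold change of 0.00. SNRPB, which encodes the SmB and SmB' proteins, read 819 and 842 on the knockdown arrays against 616 and 576 on the control arrays. Both knockdown values lay above both control values, at 139% of the control mean. The group means were 830 ± 15.8 in knockdown and 596 ± 28.1 in control, a log2 fold change of 0.47 (SE 0.10, 95% interval 0.23 to 0.71). Its limma adjusted p was 0.252 in the common-prior fit and 7.64e-04 in the intensity-trend fit. The other SNRPB probe set read 263 and 253 in knockdown and 259 and 221 in control, groups that overlap, with a log2 fold change of 0.10, and the average of both gave 0.29.

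The other Sm genes did not pass either fit. SNRPE read 3211 and 3072 in knockdown and 3264 and 3064 in control (log2 fold change -0.01, 95% interval -0.25 to 0.23). SNRPD3 read 721 and 673 against 705 and 686 (0.00, -0.24 to 0.24), and SNRPD1 read 582 and 520 against 531 and 567 (0.00). At all 3 the groups overlapped. SNRPG, at 1525 and 1477 against 1525 and 1439, also overlapped (0.02). SNRPD2 read 2168 and 2187 in knockdown and 2447 and 2358 in control, and SNRPF 642 and 577 against 704 and 673. At these 2 of the 7 Sm genes the knockdown arrays lay below the control arrays, as they did at 24.5% of all genes tested. Their log2 fold changes were -0.14 and -0.17, with adjusted p-values of 0.551 and 0.497 in the common-prior fit. Among the brightest probe sets of these 7 genes, SNRPB alone had a log2 fold change beyond 0.2 in either direction.

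Proteins particular to the U1 and U2 snRNPs had fold changes between -0.21 and 0.15 and none passed a fit. SNRPA and SNRPC, of the U1 snRNP that marks the start of the intron, read 277 and 271 against 253 and 239 (0.15), and 86.7 and 92.9 against 86.4 and 72.7 (0.15). SNRPA1 and SNRPB2, of the U2 snRNP that binds the branch site, gave -0.21 and -0.10. SNRPA1 read 563 and 483 in knockdown and 656 and 560 in control, where the groups overlapped.

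The end of the intron is recognised by U2AF, a pair of a large subunit that binds the polypyrimidine tract (U2AF2) and a small subunit that reads the terminal AG (U2AF1). U2AF2 read 206 and 210 on the knockdown arrays against 296 and 275 on the control arrays. Both knockdown values lay below both control values, at 72.8% of the control mean. It averaged 208 ± 3.26 in knockdown and 286 ± 15.2 in control (log2 fold change -0.43, SE 0.10, 95% interval -0.67 to -0.19). The limma adjusted p was 0.255 in the common-prior fit and 0.00783 in the intensity-trend fit. The other U2AF2 probe sets were dim, with knockdown means of 10.1, 8.39 and 2.19 and control means of 12.3, 5.85 and 3.36, so the lower level rests on 1 probe set, and the average of all gave -0.12. U2AF1, the partner subunit, read 454 and 425 in knockdown and 449 and 395 in control, a log2 fold change of 0.06 with overlapping groups (95% interval -0.20 to 0.33).

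SF3A and SF3B are the subcomplexes that anchor the U2 snRNP at the branch site. The 3 SF3A genes lay above 0 with knockdown arrays above control arrays at each (22.7% of all genes tested did), and SF3A2 passed the intensity-trend fit. SF3A2 read 137 and 143 on the knockdown arrays against 101 and 109 on the control arrays. Both knockdown values lay above both control values. It averaged 140 ± 3.85 in knockdown and 105 ± 5.90 in control (log2 fold change 0.37, SE 0.10), with limma adjusted p-values of 0.258 in the common-prior fit and 0.0406 in the intensity-trend fit. The second SF3A2 probe set gave the same fold change, with 95.8 and 76.5 in knockdown and 59.2 and 66.8 in control (0.37). It did not pass the intensity-trend fit when every probe set was tested as its own row (adjusted p = 0.109). SF3A1 read 245 and 268 against 236 and 230 (0.13) and SF3A3 171 and 152 against 151 and 146 (0.10), and neither passed a fit.

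The 6 SF3B genes had a median of 0.02 and none passed a fit. SF3B1, which encodes the large scaffold around the branch site, read 431 and 364 in knockdown and 484 and 456 in control at its brightest probe set. The groups did not overlap, and the log2 fold change of -0.24 (SE 0.12) came with adjusted p-values of 0.419 (common-prior fit) and 0.123 (intensity-trend fit). SF3B6, which contacts the branch site region, read 679 and 667 against 733 and 702 (-0.09), and SF3B2 read 560 and 534 against 510 and 499 (0.11). SF3B3, SF3B4 and SF3B5 gave 0.04, 0.06 and 0.00 with overlapping groups.

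The tri-snRNP is the particle that brings the catalytic RNAs to the intron, and 5 of the tested PRPF genes encode proteins of it. The 13 tested tri-snRNP partners outside the families had a median log2 fold change of 0.03, with 8 above 0 and 5 below. The 5 PRPF genes ran from 0.02 to 0.27, all above 0, with a median of 0.12 beside -0.01 for all genes tested. All 5 also lay above 0 under quantile normalization, median centring and the mean of probe sets, settings that keep all 4 arrays. The groups did not overlap at 2 of the 5 (PRPF4 and PRPF6), against 47.3% of all genes tested. At PRPF3 and PRPF31, 1 control array lay above both knockdown arrays and the other below both. The sign at PRPF3 and PRPF31 therefore depends on which control array is kept. PRPF8, the scaffold of the catalytic centre, read 240 and 247 in knockdown and 221 and 241 in control (0.07). PRPF6, which bridges the particle's parts, read 101 and 102 against 76.2 and 87.4, a log2 fold change of 0.27 (common-prior adjusted p = 0.334). PRPF4 read 254 and 249 against 231 and 229 (0.12). PRPF31 read 139 and 132 in knockdown and 90.3 and 156 in control, so its controls stood apart from each other by more than the groups did, and its SE of 0.21 was the widest of the 74. Among the other PRPF genes, PRPF38A, a factor of spliceosome activation, read 197 and 195 against 158 and 165 (0.26), PRPF19, a ubiquitin ligase that joins at activation, 213 and 191 against 173 and 174 (0.20), and PRPF39, a partner of the U1 snRNP, 35.4 and 29.7 against 40.4 and 37.8 (-0.19). None of the PRPF genes passed either fit.

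LSM proteins form rings like those of the Sm proteins, and the ring's composition sets its place: LSM2 to LSM8 bind the U6 RNA in the nucleus, and LSM1 takes the place of LSM8 in the cytoplasmic ring that promotes mRNA decapping. The 8 genes had a median of 0.03, with 4 above 0 and 4 below. LSM5, shared by both rings, read 449 and 428 on the knockdown arrays against 602 and 515 on the control arrays. Both knockdown values lay below both control values, at 78.5% of the control mean. It averaged 439 ± 14.5 in knockdown and 559 ± 61.5 in control (log2 fold change -0.33, SE 0.12), with limma adjusted p-values of 0.294 in the common-prior fit and 0.0265 in the intensity-trend fit. Its other probe sets gave -0.14 and -0.20, at 57.5 and 61.6 against 72.8 and 61.8, and at 47.9 and 51.8 against 56.0 and 63.5, so at all 3 the knockdown arrays lay below the control arrays, though at the second the nearest values were 61.6 and 61.8.

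The other members of these rings gave smaller or opposite values. LSM7, also shared by both rings, read 431 and 392 in knockdown and 351 and 334 in control (0.25, adjusted p = 0.0770 in the intensity-trend fit). LSM8, of the nuclear ring, read 269 and 265 against 257 and 280 (-0.01), and LSM1, of the decay ring, 138 and 134 against 175 and 133 (-0.15), both with overlapping groups. LSM3 read 615 and 581 against 618 and 523 (0.07). LSM10 and LSM11 belong to the U7 snRNP, which cuts the ends of histone mRNAs. LSM10 read 96.5 and 103 in knockdown and 79.8 and 69.2 in control (0.36, adjusted p = 0.273 in the common-prior fit and 0.0746 in the intensity-trend fit), whereas LSM11 read 30.8 and 40.2 against 40.7 and 37.1 (-0.10). LSM14A, a protein of cytoplasmic P-bodies, gave 0.17 with overlapping groups.

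The 9 tested SR protein genes lay between -0.25 and 0.20, with a median of 0.00, and none passed a fit. SRSF3, which also helps mRNA export, read 918 and 841 in knockdown and 967 and 931 in control (-0.11). SRSF7 read 743 and 605 against 728 and 615, with a log2 fold change of 0.00 and replicates that differed within each group more than the groups did. SRSF1, the best known SR protein, read 555 and 562 against 572 and 534 (0.01, 95% interval -0.23 to 0.25). SRSF4 was highest at 217 and 209 against 188 and 178 (0.20), and SRSF5 lowest at 248 and 206 against 279 and 264 (-0.25), with adjusted p-values of 0.423 and 0.409 in the common-prior fit.

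Of 19 hnRNP genes, 14 lay below 0 and 5 above, with a median of -0.07 beside -0.01 for all genes tested, and none passed a fit. Over all genes tested, 6136 lay above 0 and 6786 below. The hnRNP split was also 5 above and 14 below under quantile normalization, but 9 and 10 under median centring. Median centring also moved all genes tested, to 7780 above and 5142 below. The hnRNP median was then -0.01, beside 0.05 for all genes tested. With the mean of probe sets the hnRNP split was 8 and 11, beside 5699 and 5813 over all genes tested. At 12 the groups did not overlap, 9 lower and 3 higher, where 24.5% of all genes tested lay lower and 22.7% higher. HNRNPF, whose protein binds runs of G, read 96.8 and 93.0 in knockdown and 75.3 and 67.4 in control (0.35, adjusted p = 0.273 in the common-prior fit and 0.0808 in the intensity-trend fit). Its relative HNRNPH1 read 1447 and 1346 against 1738 and 1500 (-0.21), and HNRNPH3 read 554 and 499 against 596 and 602 (-0.18). HNRNPA3 had the lowest value, with 457 and 442 in knockdown and 625 and 494 in control (-0.30, adjusted p = 0.373 in the common-prior fit and 0.0760 in the intensity-trend fit). Its other probe sets gave 0.04 and 0.14, the average of all was -0.04, and the value was -0.13 without control replicate 1 and -0.46 without control replicate 2. HNRNPD, whose protein binds AU-rich elements and promotes mRNA decay, read 1425 and 1459 against 1523 and 1505 (-0.07). HNRNPK gave -0.11 at 979 and 967 against 1052 and 1049. HNRNPLL, a regulator of CD45 splicing in lymphocytes, gave -0.09 at 288 and 276 against 305 and 298.

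**Figure D3:**
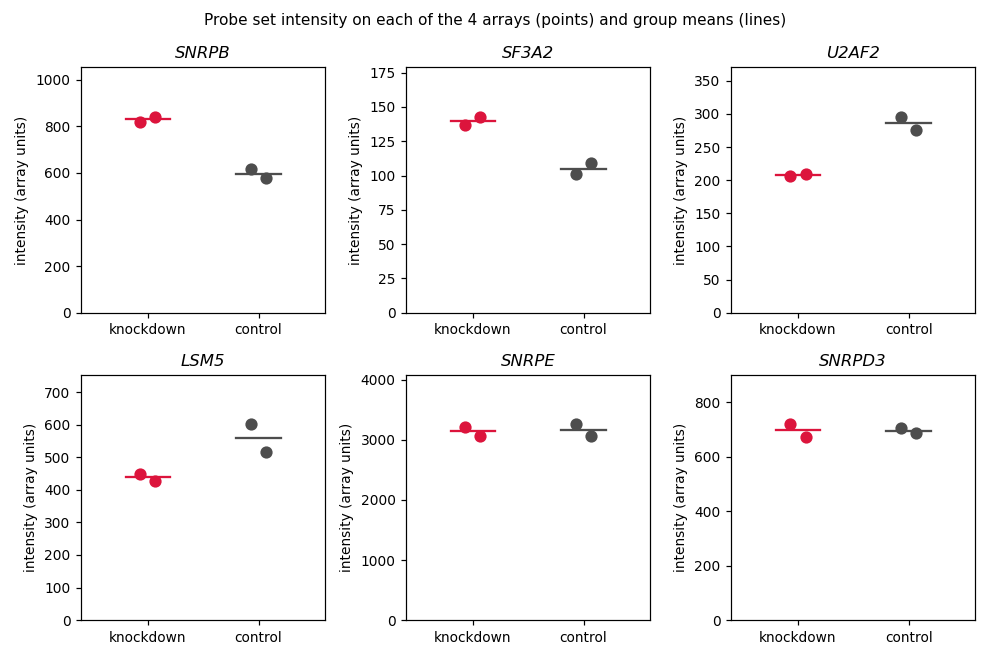
Intensity in array units (y axis, from 0) on each knockdown and control array, as points, with group means as lines. SNRPB and SF3A2 were higher and U2AF2 and LSM5 lower on both knockdown arrays, and SNRPE and SNRPD3 show overlapping groups.

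Many of these genes are read by several probe sets, which can lie on different parts of a transcript or on different transcripts of a gene. The 77 genes had 215 probe sets, 180 of them above the filter, and 49 genes had 2 or more above it. At 22 of the 49 all probe sets lay on the same side of 0, and at 27 they did not. In 7 genes (SNRPE, SRSF10, SRSF1, SF3B1, PRPF38A, HNRNPDL and HNRNPH1) one probe set stood at 0.2 or more and another at -0.2 or less. Every probe set above the filter was also tested as its own row, a choice made after seeing the data. Of the 180 splicing probe sets, 9 passed the intensity-trend fit, each of a different gene, against 2.34% of all probe sets tested. In the common-prior fit 0 passed, against 0.00883%. Those 9 were the 4 above and single dimmer probe sets of SNRPE, HNRNPC, SRSF10, LSM4 and SF3A1.

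SNRPE had the widest disagreement. Its second probe set read 139 and 128 in knockdown and 208 and 228 in control (log2 fold change -0.64, adjusted p = 0.00115 in the intensity-trend fit over every probe set), while the brightest one gave -0.01 and a dim one 0.21. SRSF10, which encodes a splicing repressor of the SR family, had a probe set at 160 and 157 against 122 and 106 (0.43, adjusted p = 0.0250) and another at 106 and 105 against 142 and 124 (-0.29, adjusted p = 0.125), with 0.02 at the brightest. For SF3B1, 3 probe sets gave -0.24, -0.27 and -0.29 and 2 gave 0.28 and 0.23, and none passed.

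HNRNPC, whose protein binds uridine tracts, lay above 0 at all 5 probe sets above the filter, from 0.13 to 0.49, and the one at 0.49 read 183 and 197 in knockdown and 142 and 119 in control (adjusted p = 0.0125). LSM4 gave 0.40 at 171 and 173 against 129 and 124 (adjusted p = 0.0241), 0.12 at its brightest probe set and -0.18 at a dim one. SF3A1 gave 0.37 at 219 and 233 against 179 and 164 (adjusted p = 0.0311), and 0.13, 0.18 and -0.04 at the others. PRPF38A, at 0.26 on its brightest probe set, gave -0.30 at 154 and 124 against 174 and 174. Of the 215 probe sets, 73 carry the suffix s_at and 24 the suffix x_at, which mark probes that can match several transcripts, and 34 and 8 of the brightest ones are of these types. Levels of genes with near-identical relatives or processed pseudogenes, such as HNRNPA1 and SNRPE, are therefore uncertain.

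**Figure D4:**
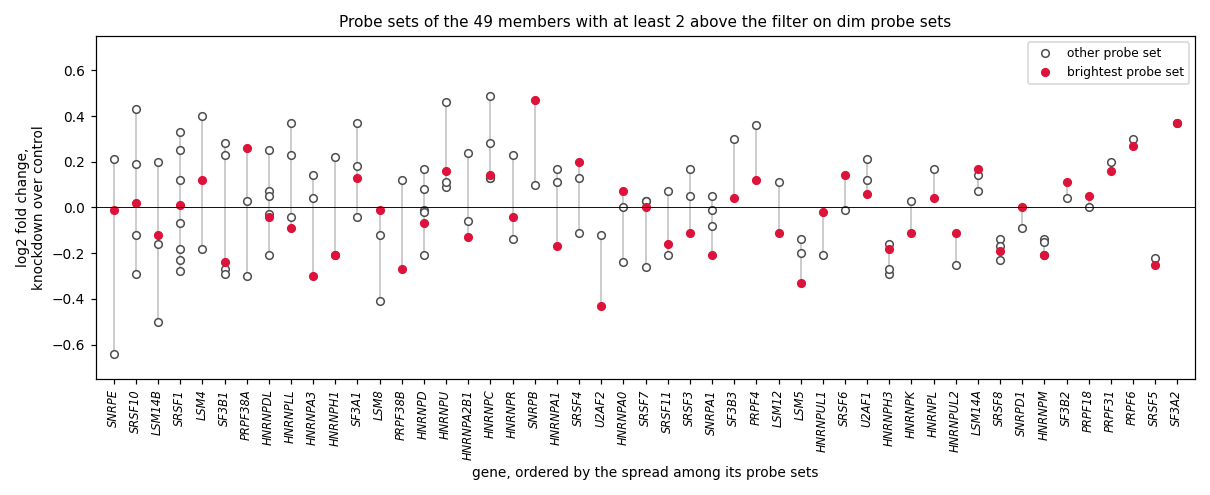
Log2 fold change (y axis, knockdown over control) of each probe set above the filter for the 49 genes with 2 or more (x axis, ordered by the spread among probe sets), with the brightest in red and the others open. SNRPE and SRSF10 show the widest spreads, and both SF3A2 probe sets coincide at 0.37.

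The replicates were not level across these genes. Replicate 1 read higher than replicate 2 at 56 of the 74 genes in knockdown (75.7%) and at 58 in control (78.4%), against 58.3% and 53.2% of all genes tested, with a median gap of 0.07 on the log2 scale in both groups. The intensity-trend count of 4 was 10 without knockdown replicate 1 (2.92% of all genes tested were called), 2 without knockdown replicate 2 (1.10%), 2 without control replicate 1 (2.01%) and 7 without control replicate 2 (1.11%), alternatives chosen after seeing the data. SNRPB and U2AF2 were called in all 4 of these fits, LSM5 without knockdown replicate 1 or control replicate 2 only, and SF3A2 in none of them. The part of the replicate gap in the calls was not tested.

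Partners outside these families came from 9 lists of 157 genes. Above the filter stood 139, with a median log2 fold change of -0.04. The common-prior fit called 0, where 17 had an unadjusted p below 0.05 (14.1% of all genes tested did). The intensity-trend fit called 4 of 139 (2.88%), a share no higher than the 2.99% of all genes tested. SNRNP25, of the minor spliceosome, read 115 and 103 in knockdown and 73.0 and 70.6 in control (0.51, adjusted p = 0.0133 in the intensity-trend fit). ALYREF, an mRNA export adaptor, read 230 and 212 against 168 and 163 (0.39, adjusted p = 0.0216). MBNL3, a muscleblind splicing regulator, read 114 and 120 against 192 and 154 (-0.50, adjusted p = 0.0139), but gave -0.06 when its probe sets were averaged. SMG6, the endonuclease of nonsense-mediated decay, was dim at 3.78 and 6.06 against 15.7 and 21.0 and passed the filter through its control arrays alone. Its log2 fold change was -0.71 with the pseudocount of 16, -1.72 with 1 and -0.26 with 64, so its call is not read as support.

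By list, 18 SR-like coactivators had a median of -0.09 with 14 below 0, and 32 other alternative splicing regulators -0.08 with 23 below 0. The 9 SR protein kinases and phosphatases had -0.08 with 6 below 0. Of all 12922 genes tested, 6786 lay below 0, with a median of -0.01. Under median centring 5142 of all genes tested lay below 0. The counts by list were not repeated under that setting, so they hold for the scaling used here only. The 10 tested U1 and U2 partners had a median of -0.04, the 13 tri-snRNP partners 0.03, the 8 minor spliceosome genes -0.07, the 24 Prp19 complex and catalytic step genes 0.04, the 15 SMN complex and assembly genes 0.06, and the 11 exon junction and decay genes -0.07. In the intensity-trend fit these lists had 0 calls apart from MBNL3 among the splicing regulators, SNRNP25 in the minor spliceosome, and ALYREF and SMG6 in the last list.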

How the data were processed

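RNA of 4 KM-H2 samples was measured on single-colour Affymetrix arrays after 1-cycle cRNA labelling, per the labels' protocols. The authors deposited 1 linear intensity per probe set and array. The sources used here do not state how it was summarised from the scan. Array means were nearly equal, but median intensities were lower in knockdown (8.37 and 8.12) than in control (9.17 and 9.28). The main fit did not adjust for this gap. On each array 971 to 1082 values lay at or below 1, 2 of them (knockdown replicate 2) below it. Probe sets were named through the platform annotation: 41091 had 1 gene, 1801 several and 11721 none, and only the first kind was used.

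Intensities were turned into log2(intensity + 16), a scale that understates changes of dim probe sets. Each gene was represented by its brightest probe set, and a gene was kept if its mean reached the median over all probe sets (4.60). All 12922 genes kept were fitted in limma 3.58.1 (R 4.3.3, lmFit and eBayes, two-sided) with Benjamini-Hochberg adjustment over all of them and a threshold of 0.05. The common-prior fit is the main one and the intensity-trend fit an alternative. The other alternatives were robust hyperparameters, quantile normalization, median centring, no or a stricter filter (the upper quartile), pseudocounts of 1 and 64, averaging probe sets, a replicate block, leaving out each array, and a threshold of 0.10. The number of arrays limits the precision. Scripts were tested on simulated data.

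The genes, lists and tests were chosen with earlier results of these data known. Named are genes past either fit, the 2 brightest and the most extreme in each direction of each family, genes whose probe sets disagree, and, outside this rule and chosen after their values were seen, further members given to complete a complex. Promoters came from RefSeq (GRCh38.p14), the first listed start of each gene.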

Additional observations from a re-analysis of the deposited data

How the results depend on the processing

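No splicing gene was called by the common-prior fit (0 of 74, with 9 at an unadjusted p below 0.05), and the count stayed at 0 under the other settings apart from the intensity-trend fit and a pseudocount of 64, each of which called the same 4 genes. The count of partner genes called was 4 under the intensity-trend fit and 4 with a pseudocount of 64, against 0. The count over all genes, 2, was 387 under the intensity-trend fit, 406 with a pseudocount of 64, 18 with the stricter filter, 0 with a pseudocount of 1 and 1 with averaged probe sets, and ranged over 1 (without control replicate 2) to 6 (without knockdown replicate 1) when 1 array was left out. The members' median log2 fold change moved by less than the spread between replicates under each setting, -0.04 at the lowest and 0.06 at the highest.

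For the intensity-trend fit the count of 4 splicing genes became 8 with median centring (4.74% of all genes tested were called), 2 with no filter (0.420%), 0 with averaged probe sets (23 of 11512 genes), 9 with every probe set (2.34%) and 15 with the replicate block (7.82%), and ranged over 2 to 10 when 1 array was left out. SNRPB and U2AF2 were called in 12 of 13 alternatives of the intensity-trend fit, those with 1 array left out included, LSM5 in 9 and SF3A2 in 6. The cause of these differences was not tested. The replicate numbers are not said to mark a shared culture. Replicate deviations of the groups correlated at -0.01 over tested genes and at -0.02 over the splicing genes. A correlation over genes does not register a gap common to them, such as the median of 0.07 in both groups at the splicing genes. It therefore cannot tell whether the replicate numbers share a source. With the replicate block in the common-prior fit 0 splicing genes were called.

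Genes near 0 changed sign under some settings. SRSF7 gave 0.00 with quantile normalization (below 0 before rounding), -0.05 with the mean of probe sets, and -0.14 to 0.15 with 1 array left out. SNRPE gave 0.05 with median centring and -0.06 to 0.04 with 1 array left out (0.02 without knockdown replicate 2). LSM3 gave -0.04 with the mean of probe sets and -0.05 to 0.19 with 1 array left out, U2AF1 -0.02 and -0.03 to 0.15, and PRPF38A -0.01 with the mean of probe sets. With 1 array left out a group holds 1 sample, which limma assumes to vary like the other group.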
